A study of Mus musculus with 6 samples.

Results

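The genes of cholesterol and fatty acid synthesis were examined in mouse cells, named T cells in the deposited design text, cultured with macrophage supernatant. Members were taken by symbol from a named list, by a rule that sets no threshold on a measured value, and all 33 were found among the 55401 genes of the count table. They comprise 7 genes of the mevalonate arm, 11 genes that carry squalene to cholesterol, 5 regulators of the SREBP system, the sterol carrier Stard4, 6 genes of fatty acid synthesis and 3 targets of the liver X receptors (LXR).

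Bulk RNA sequencing of poly(A) RNA was performed on 6 T cell libraries, 3 from cultures with supernatant of untreated macrophages (control) and 3 from cultures with supernatant of macrophages exposed to NFL (neurofilament light chain), which belongs to the axonal cytoskeleton. By the deposited design text, T cells of both groups were taken from mouse spleen with beads against CD8a. Macrophages of both groups were grown from CD11b-selected spleen monocytes for 7 days in 50 ng/mL M-CSF, and their filtered supernatant formed 50% of RPMI-1640 medium with 2% serum. Only the macrophages of the NFL group had received 5 µg/mL NFL over 24 h, in the form of a freeze-thawed lysate of sciatic nerve, so other nerve proteins and NFL cannot be told apart. The paper's methods for its co-culture give another NFL dose. Strain, age and sex are not given in the labels, and nothing states that the replicates came from separate animals or cultures, so p-values measure only the spread between these libraries, which may be technical.

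Cells make cholesterol from acetyl-CoA through mevalonate, isoprenoid diphosphates, squalene and lanosterol, and they make fatty acids from the same acetyl-CoA through malonyl-CoA. When sterol in the endoplasmic reticulum is low, SCAP escorts the SREBP transcription factors to the Golgi, where they are cleaved and sent to the nucleus to raise transcription of these enzymes, while INSIG proteins hold the complex back when sterol is high. LXR, bound by oxidised sterols, raises genes of sterol export and fatty acid synthesis. T cells that have been activated and divide are known to draw on both routes for new membrane.

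SREBPs bind sterol response elements in promoters together with NF-Y, which binds CCAAT, and with SP1, which binds the GC box GGGCGG. Promoter sequence of 26 of the 33 members was held in the RefSeq table used here (GRCm38.p6, 250 bases before to 50 bases after each start). Each word was searched on both strands, and words were allowed to share bases. CCAAT was present in 21 of the 26 members and in 41.1% of all 27025 genes of the table. GGGCGG was present in 22 of the 26 members and in 38.2% of all genes. The sterol response element core TCACNCCAC stood in the promoter of 1 member, Hmgcs1, and in 1.44% of all genes, and with up to 1 mismatch it stood in 12 of 26 members and 26.7% of all genes. The LXR repeat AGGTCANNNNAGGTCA stood in 0 of 26 members and in 0.0148% of all genes. The windows below show sites before the start in the members with a promoter entry whose RNA changed (Dhcr7 and Idi1) and, beside them, 1 site each of 3 members that did not pass the test (Hmgcs1, Cyp51 and Fasn). Capitals mark 1 site per run, which is CCAAT, its reverse complement ATTGG or, for Hmgcs1, the sterol response element core. Each run is read along the gene's own strand. The Fasn run also holds an ATTGG that shares bases with the marked CCAAT and is not itself marked.
Dhcr7, chr7:143830117-143830145, plus strand: tcactgccttcaCCAATcacaggacgcag
Dhcr7, chr7:143830153-143830181, plus strand: aatccacttccgATTGGtcgtctgtgacc
Idi1, chr13:8885549-8885577, plus strand: tgcctccagctgATTGGcgagcccgggca
Hmgcs1, chr13:119690204-119690232, plus strand: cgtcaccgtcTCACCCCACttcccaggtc
Cyp51, chr5:4104710-4104738, minus strand: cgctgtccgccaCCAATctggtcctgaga
Fasn, chr11:120824593-120824621, minus strand: cggcctcggtgtCCAATtggtttcgatgt
The marked words begin 85 and 49 bases before 1 of 3 listed starts of Dhcr7, and 45, 137, 29 and 62 bases before the starts of Idi1, Hmgcs1, Cyp51 and Fasn. Not every site is printed. Of the tested members that did not pass, Acat2, Acaca, Elovl6 and Scap held no CCAAT in this window, and Scd2, which fell, had no entry. A matching word is a description of the sequence and not a measured binding site.

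Total counts ran from 15843045 to 24639756 per library, at which a floor of 3 counts equals 0.122 to 0.189 CPM (read count scaled to library size). Of the 9 T cell markers, Thy1 stood at 1570 to 1710 CPM, Cd247 at 37.8 to 47.1 CPM and Cd4 at 23.3 to 27.6 CPM in the 6 libraries. The list, carried almost wholly by Thy1, summed to 1760 to 1860 CPM in the control and 1710 to 1800 CPM in the NFL group. The other T cell markers were low, with Cd3g at 6.05 to 8.86, Cd3d at 2.32 to 4.82, Cd8a at 3.20 to 4.46, Trac at means of 1.89 and 1.54 and Cd8b1 at 0.870 to 1.57 CPM, apart from Cd3e, which fell from 56.4 to 64.6 CPM in the control to 49.1 to 50.8 CPM in the NFL libraries (log2 fold change -0.28, edgeR adjusted p = 5.7e-04). Cd8a and Cd8b1 thus stood below Cd4 in every library, which is at odds with the stated selection by beads against CD8a. The identity of the cells was not tested, and the name T cells is that of the design text. Of the 12 macrophage markers, C1qa, C1qb, C1qc, Itgam, Mrc1 and Cd14 had 0 counts in every library, and the summed list, carried almost wholly by Cd68 (log2 fold change -0.26, edgeR adjusted p = 0.0494), ran from 24.6 to 27.5 CPM in the control group and from 19.2 to 23.5 CPM in the NFL group. Of the 6 B cell markers, Ms4a1 and Ighm had 0 counts, and the list summed to 12.1 to 13.2 and 11.6 to 14.1 CPM. Of the 4 natural killer cell markers Ncr1 had 0 counts, the list, carried by Eomes, summed to 461 to 484 and 442 to 461 CPM, and Klrb1c fell from 31.7 ± 1.75 to 22.4 ± 0.322 CPM (log2 fold change -0.51, edgeR adjusted p = 2.4e-06). The 4 globin genes of the erythroid list were also at 0. The part of these marker shifts in the results below was not tested, and in bulk RNA a smaller number of cells of a type and less RNA per cell cannot be told apart.

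Nearly the whole set was expressed. At CPM per kb of annotated exon, averaged over the 6 libraries, the highest level was that of Scd2 (111 ± 7.35, SD, n = 6), a stearoyl-CoA desaturase that makes monounsaturated fatty acids. Cyp51, the lanosterol demethylase, followed at 53.7 ± 0.662. Fasn, the fatty acid synthase, stood at 48.6 ± 2.10 and Acly, which supplies cytosolic acetyl-CoA, at 46.3 ± 0.921. Fasn stood above Acly within each of the 6 libraries, although their ranges over the libraries overlapped. Next came the mevalonate diphosphate decarboxylase Mvd (35.8 ± 1.88) and the sterol carrier Stard4 (30.1 ± 1.06). At the low end of the tested members were Fdps (1.56 ± 0.198), which makes farnesyl diphosphate, Tm7sf2 (1.13 ± 0.191), a sterol reductase, and Abcg1 (0.994 ± 0.0901), a sterol exporter. Fdft1 had no length of the same identifier version and was not placed in this order.

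**Figure D1:**
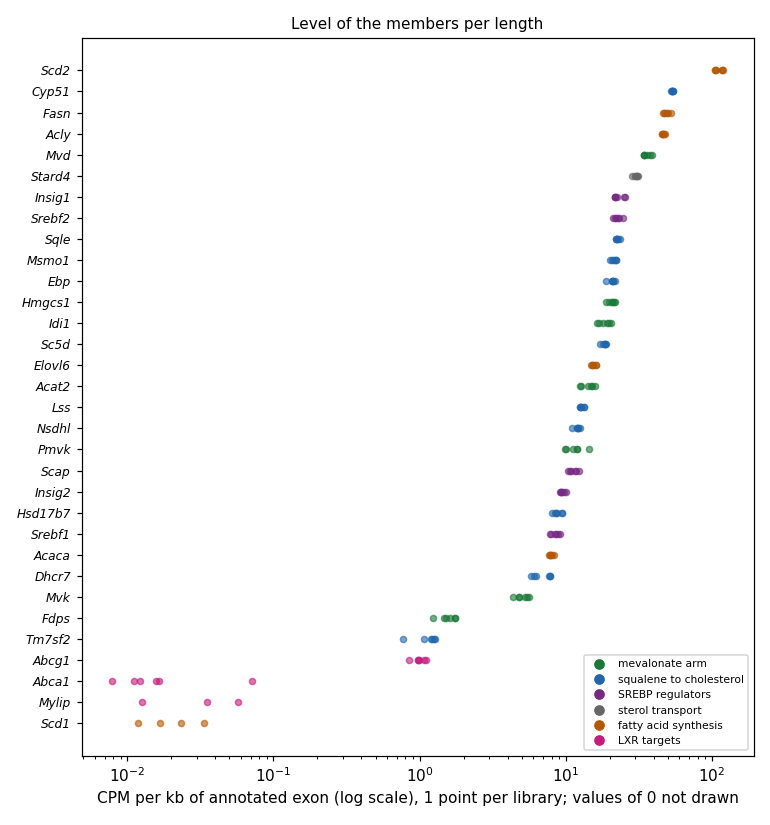
Level of 32 members as CPM per kb of annotated exon on a log axis, 1 point per library and colours for the 6 roles. Scd2 lies highest at about 111, most members lie near 10 to 50, and Scd1, Abca1 and Mylip lie far below the rest, with libraries of 0 counts not drawn.

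Expression of 3 members was too low to test. Scd1, the desaturase paralog of Scd2 that is prominent in liver and fat, had 2, 0 and 4 counts in the control libraries and 0, 1 and 2 counts in the NFL libraries. The LXR target Abca1, a cholesterol exporter, had 4, 2 and 2 counts and 12, 2 and 3 counts, and the LXR target Mylip, a ubiquitin ligase for lipoprotein receptors, had 0, 0 and 1 and 3, 0 and 2 counts. These genes were at or near the floor of 3 counts apart from 1 NFL library for Abca1, and a difference was not detectable at this depth. Scd1 and Scd2 share a stretch of 623 bp at 95% identity or more, and how reads within it were assigned is not stated.

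The comparison of NFL with control supernatant addresses whether supernatant of NFL-exposed macrophages alters these cells. Factors released by the macrophages and any nerve lysate carried over in the supernatant cannot be told apart by it. Of 33 members, 30 passed the filter on low counts, and 3 of these passed the edgeR quasi-likelihood test with Benjamini-Hochberg adjustment over all genes. Dhcr7 and Scd2 fell and Idi1 rose, each by a fraction of its level, and the remaining 27 did not pass. The 1 member that rose is 3.33% of the tested members, beside 3.47% of all 14082 tested genes called higher (489 genes). The 2 that fell are 6.67%, beside 3.53% of all tested genes called lower (497 genes). When counts were scaled by their totals without TMM factors, the split over all genes was 372 higher and 600 lower, 38.3% of calls higher in place of 49.6%, and the member counts were again 1 and 2. Counts of 1 and 2 genes lie near this background and are no result about the set. The median log2 fold change of the tested members was -0.03 (interquartile range -0.08 to 0.02), beside 0.00 (-0.09 to 0.09) over all tested genes.

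**Figure D2:**
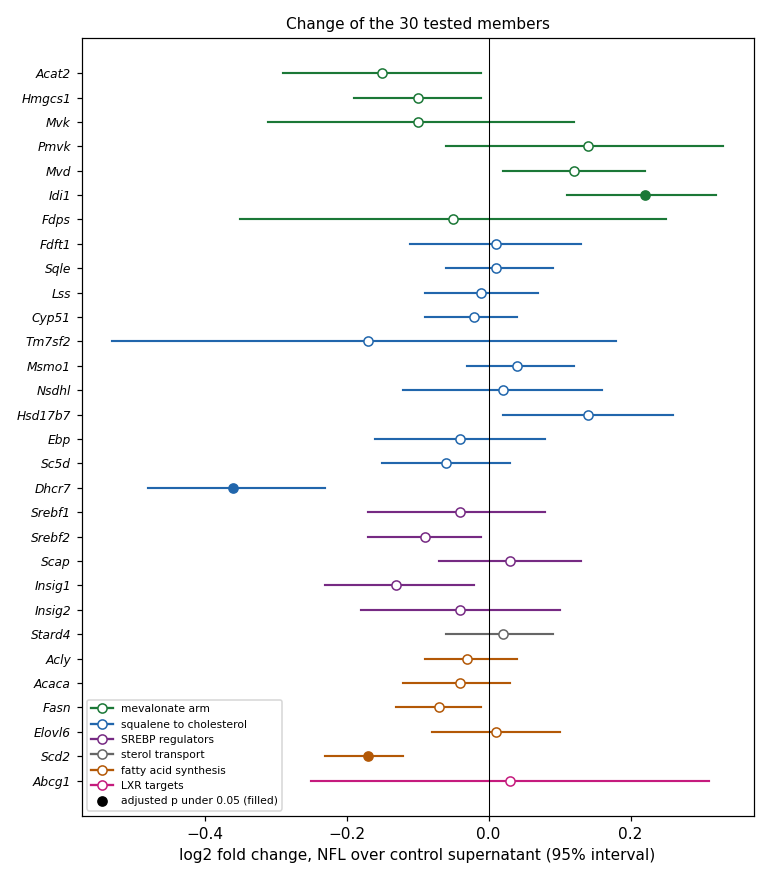
Log2 fold change, NFL over control, with its 95% interval for the 30 tested members by role; filled points passed an adjusted p of 0.05. Dhcr7 (-0.36) and Scd2 (-0.17) lie left of 0 and Idi1 (0.22) right of it, and the widest intervals are those of the low genes Tm7sf2, Fdps and Abcg1.

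Dhcr7 encodes the reductase that turns 7-dehydrocholesterol into cholesterol, the last step of one branch of the route. It was measured at 45.5, 45.2 and 44.7 CPM in the control libraries and at 36.5, 33.9 and 35.4 CPM in the NFL libraries. Every NFL library lay below every control library, with a gap many times the spread within the control group. Mean levels were 45.2 ± 0.414 CPM and 35.3 ± 1.32 CPM (SD, n = 3 per group). The log2 fold change was -0.36 (SE 0.062, 95% interval -0.48 to -0.23) and the edgeR adjusted p was 6.3e-05. A stretch of up to 227 bp of its transcript is also found at 95% identity or more in 22 other genes, so part of its reads may be shared. Those genes had 90836 counts over the 6 libraries, beside 583 to 1120 counts per library for Dhcr7.

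Of the listed stearoyl-CoA desaturases, Scd1 and Scd2, only Scd2 was expressed well enough to test. Scd2 was also the most abundant member. Its levels were 650, 644 and 642 CPM in the control group against 579, 569 and 570 CPM in the NFL group. The groups were separated by more than the whole range within either. The fall was small in proportion, from a mean of 646 ± 4.08 to 573 ± 5.76 CPM (log2 fold change -0.17, SE 0.027, 95% interval -0.23 to -0.12), and its edgeR adjusted p was 1.0e-05.

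Idi1 encodes the isomerase that turns isopentenyl diphosphate into dimethylallyl diphosphate, the starter for longer isoprenoids. It was at 57.2, 63.3 and 58.9 CPM with control supernatant and at 67.1, 68.8 and 71.6 CPM with NFL supernatant. The lowest NFL library stood above the highest control library, though by less than the spread of the control group. The mean went from 59.8 ± 3.16 to 69.2 ± 2.28 CPM (log2 fold change 0.22, SE 0.052, 95% interval 0.11 to 0.32), with an edgeR adjusted p of 0.00493. Its call was lost without control replicate 1 (adjusted p = 0.0601) and without NFL replicate 3 (adjusted p = 0.0730), at log2 fold changes of 0.18 and 0.19. Near-identical stretches of up to 684 bp lie in 3 other genes, which had 122 counts over the 6 libraries beside 7382 for Idi1. Exons of Gm48574, among these genes, overlap those of Idi1 on the opposite strand.

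**Figure D3:**
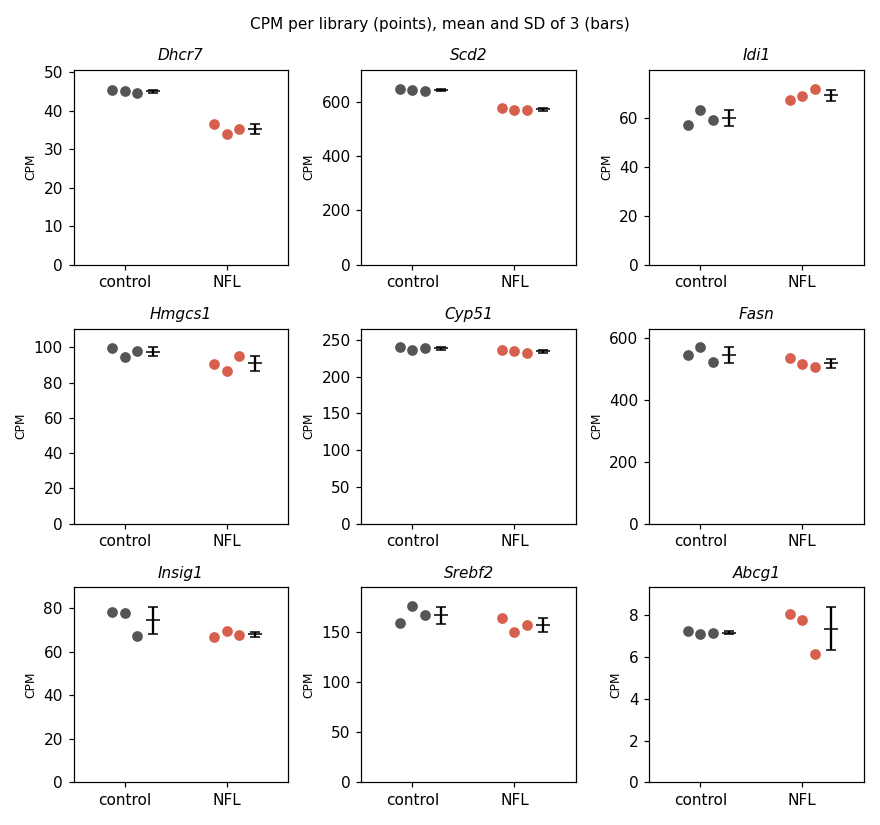
CPM in each library (points) with the mean and SD of 3 (bars) for 9 members, each axis starting at 0. Dhcr7 and Scd2 are lower and Idi1 higher in all 3 NFL libraries, while the groups of the other 6 genes overlap.

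Around Idi1 in the mevalonate arm, the neighbouring steps did not pass. Hmgcs1, which condenses acetoacetyl-CoA with acetyl-CoA, was at 99.8, 94.8 and 97.9 CPM with control supernatant and at 90.6, 86.9 and 95.3 CPM with NFL supernatant, so 1 NFL library lay within the control range. Its log2 fold change was -0.10 (95% interval -0.19 to -0.01, edgeR adjusted p = 0.172). Acat2, the cytosolic thiolase before it, had -0.15 (adjusted p = 0.219) with overlapping groups. Reads of Acat2 may be shared with Acat3 (1477 bp at 95% identity or more) and with Tcp1 (445 bp). Over the 6 libraries Acat3 had 61 counts and Tcp1 had 45519. Mvd, which decarboxylates mevalonate diphosphate just before Idi1 acts, stood at 63.5, 64.3 and 63.8 CPM against 72.0, 66.7 and 69.6 CPM. All 3 NFL libraries of Mvd lay above the control libraries, yet its edgeR adjusted p was 0.150 at a log2 fold change of 0.12. The kinases Mvk and Pmvk had log2 fold changes of -0.10 (95% interval -0.31 to 0.12) and 0.14 (-0.06 to 0.33). For Fdps the value was -0.05 with the wide interval of -0.35 to 0.25, and 5 other genes hold near-identical stretches of up to 1066 bp. The 7 genes of the arm summed to 299 ± 3.43 CPM in the control and 304 ± 4.34 CPM in the NFL group.

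From squalene to cholesterol, Dhcr7 was the member past the test among 11. The entry steps were flat. Sqle, the squalene epoxidase, stood at 123 to 126 CPM in the control and 123 to 130 CPM in the NFL libraries (log2 fold change 0.01, 95% interval -0.06 to 0.09). Lss, the cyclase that closes the ring system to lanosterol, had -0.01 (-0.09 to 0.07), and the squalene synthase Fdft1 had 0.01 (-0.11 to 0.13). Fdft1 has 774 bp of sequence in common with Ctsb, which had 29100 counts over the 6 libraries. Cyp51 was at 241, 236 and 239 CPM against 237, 235 and 233 CPM, a log2 fold change of -0.02 with the narrow interval of -0.09 to 0.04. The groups of Cyp51 overlapped, and its exons overlap those of Akap9 on the opposite strand. Msmo1, the C4 methyl oxidase, had 0.04 (-0.03 to 0.12), and Nsdhl, which acts with it on the C4 carbons, had 0.02 (-0.12 to 0.16). Hsd17b7, the 3-keto reductase of the same complex, stood at 43.7, 43.0 and 41.2 CPM against 48.0, 44.3 and 48.2 CPM. Its NFL libraries all lay above its control libraries, but the log2 fold change of 0.14 did not pass (edgeR adjusted p = 0.186).

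The late isomerase Ebp had a log2 fold change of -0.04 (95% interval -0.16 to 0.08). Sc5d, the desaturase that makes the substrate of Dhcr7, was at 91.2, 90.5 and 90.7 CPM in the control group and 83.9, 86.9 and 90.5 CPM in the NFL group. The groups of Sc5d did not overlap, although the highest NFL library all but met the lowest control library, and the log2 fold change of -0.06 had an edgeR adjusted p of 0.516. Tm7sf2, at about 5 CPM, had -0.17 with the widest interval of the set (-0.53 to 0.18), and it shares 532 bp with the overlapping gene Vps51. Over all libraries Vps51 had 2574 counts beside 579 for Tm7sf2. Summed over the 18 enzymes of both sterol arms, the level was 1240 ± 2.26 CPM in the control and 1240 ± 22.3 CPM in the NFL group.

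The regulators held to small differences, and 0 of 5 passed the test. Srebf2, the SREBP gene most tied to sterol synthesis, was at 159, 176 and 167 CPM against 164, 150 and 157 CPM (log2 fold change -0.09, edgeR adjusted p = 0.170). Srebf1, more tied to fatty acid synthesis, had -0.04 (95% interval -0.17 to 0.08), and the escort Scap had 0.03 (-0.07 to 0.13). Insig1, which is itself an SREBP target, stood at 78.3, 77.8 and 67.2 CPM in the control group and at 66.9, 69.4 and 67.6 CPM in the NFL group. Control replicate 3 lay among the NFL libraries while the other 2 control libraries lay above them. The edgeR adjusted p of Insig1 was 0.149 (log2 fold change -0.13) over all 6 libraries and 0.0128 (-0.20) without control replicate 3. Without any other single library it was 0.199 to 0.523. Insig2 had -0.04 (-0.18 to 0.10), and the sterol carrier Stard4, another SREBP target, had 0.02 (-0.06 to 0.09). Srebf1 overlaps exons of Rai1 on the opposite strand, and whether counting used strand is not given in the sources used here.

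Among the fatty acid genes Scd2 was the member past the test. Fasn, which builds palmitate, was at 544, 570 and 521 CPM in the control and 534, 515 and 506 CPM in the NFL libraries. Its groups overlapped, with a log2 fold change of -0.07 and an edgeR adjusted p of 0.174. Fasn passed without control replicate 3 (adjusted p = 0.0364), but not without any other single library (0.116 to 0.568). Acly had -0.03 (95% interval -0.09 to 0.04), and Acaca, the carboxylase that makes malonyl-CoA, had -0.04 (-0.12 to 0.03). Elovl6, which lengthens palmitate to stearate, had 0.01 (-0.08 to 0.10). The summed level of the 6 genes was 1670 ± 23.7 CPM in the control group and 1570 ± 20.6 CPM in the NFL group, a gap to which Scd2 and Fasn contributed most. The tested LXR target, Abcg1, was at 7.23, 7.09 and 7.16 CPM against 8.08, 7.79 and 6.17 CPM. Its NFL libraries lay on both sides of the control libraries (log2 fold change 0.03, 95% interval -0.25 to 0.31).

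The 95% intervals rest on the spread between these libraries, fitted at 3.48% beyond counting noise, which may be technical. They bound the difference between these libraries and not that between separate animals or cultures. The 95% interval lay within a 20% change either way for 24 of the 30 tested members and for 7480 of all 14082 tested genes. All tested genes include many of low counts, and no background of matched level was drawn. By position of the libraries alone, the 3 NFL values were all above the control values in 3 members (Idi1, Mvd and Hsd17b7), beside 11.5% of all tested genes, and all below in 3 (Dhcr7, Scd2 and Sc5d), beside 11.2%. The other 24 members overlapped. An exact permutation test of 3 against 3 libraries cannot go below p = 0.1. Without adjustment, 10 of 30 members and 2711 of all 14082 tested genes had an edgeR p under 0.05.

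**Figure D4:**
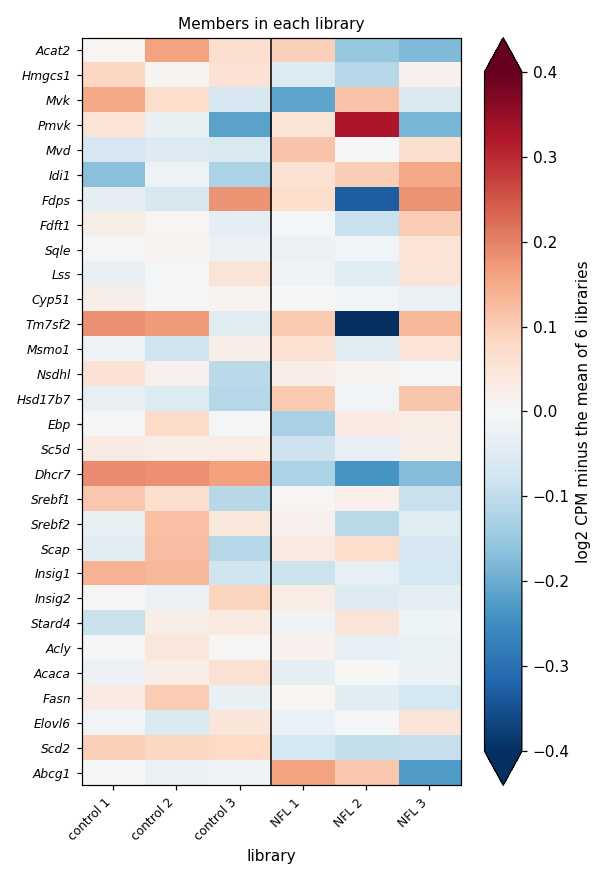
Each tested member in each library, as log2 CPM minus its mean over the 6 libraries. The rows of Dhcr7 and Scd2 change colour at the line between groups and that of Idi1 changes the other way, while the strongest single cells, such as NFL 2 for Tm7sf2, Fdps and Pmvk, belong to low genes.

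A wider list of 85 genes around the pathway was also counted, of which 84 were in the table and 69 were tested. Among them 2 were called higher (2.90%) and 6 lower (8.70%), beside 3.47% and 3.53% of all tested genes. Por, the reductase that feeds electrons to Cyp51 and Sqle, was at 106, 103 and 104 CPM against 93.0, 85.6 and 91.5 CPM (log2 fold change -0.22, SE 0.043, edgeR adjusted p = 4.7e-04). Its NFL libraries all lay below its control libraries, whereas the levels of Cyp51 and Sqle themselves overlapped. Npc2, which hands cholesterol on inside lysosomes, fell from 297 ± 2.94 to 270 ± 4.33 CPM (log2 fold change -0.13, edgeR adjusted p = 0.00269). Gramd1b, a carrier of plasma membrane cholesterol to the endoplasmic reticulum, was at 30.2, 26.9 and 32.8 CPM against 36.2, 34.9 and 36.9 CPM, a rise of 0.26 on the log2 scale (edgeR adjusted p = 0.0172).

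Of the genes next to fatty acid synthesis, Acss2, which makes acetyl-CoA from acetate, fell from 18.8 ± 0.230 to 14.7 ± 0.308 CPM (log2 fold change -0.35, edgeR adjusted p = 0.0105). The elongase Elovl7 fell from 6.69 ± 0.553 to 4.39 ± 0.529 CPM (-0.61, edgeR adjusted p = 0.0110). Hsd17b12, the ketoacyl-CoA reductase of the elongation cycle, rose from 265 ± 4.64 to 285 ± 6.21 CPM (0.11, edgeR adjusted p = 0.0236). These calls lay on both sides of 0.

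In the LXR pathway, Rxra, a partner of LXR in its heterodimer, fell from 25.5 ± 0.356 to 20.8 ± 0.990 CPM (log2 fold change -0.29, edgeR adjusted p = 0.0138). The LXR gene Nr1h2 was at 39.4 ± 0.489 and 38.0 ± 2.05 CPM, and Nr1h3 was low at 1.00 ± 0.463 and 1.22 ± 0.341 CPM. The calls of Gramd1b, Hsd17b12, Acss2, Elovl7 and Rxra were each lost when at least 1 single library was left out, at adjusted p of 0.0549 to 0.154, while those of Por and Npc2 were kept in all 14 alternatives.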

How the data were processed

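The authors deposited raw read counts per gene, whole numbers without normalization, 1 column per library, and columns were assigned by group letter and number (0 columns left without a sample). The submitters' processing notes name GRCm39, R 4.2.1 and limma 3.54.2 without a role; the aligner, counting program, annotation and strand are not given in the sources used here. Of 55401 versioned identifiers, 54349 were identical to GENCODE M21 (GRCm38), from which exon lengths and overlaps were taken, so no gene coordinates are printed beyond the RefSeq GRCm38.p6 promoter sites. The paper's methods state no test for these counts. Genes were kept with filterByExpr (minimum count 10, minimum total 15), scaled by TMM (0.994 to 1.007) and compared by edgeR 4.0.16 (glmQLFit, then glmQLFTest) in R 4.3.3, group as the only term, Benjamini-Hochberg threshold 0.05. CPM used TMM-scaled totals. Floors cover counting error only. Libraries within a group differed beyond counting noise (chi-square over its degrees of freedom 1.88 to 3.43), so none was a copy. Near-identical transcripts were sought with blastn (95% identity, 200 bp). Alternatives were size factors of DESeq2 1.42.0 and its Wald test, limma-voom (limma 3.58.1), library size alone, other filters, a replicate block, thinned counts and each library left out. The procedure was tested on simulated counts. All members are named, and of the wider list those past the threshold, at most 12 by adjusted p. Nr1h2 and Nr1h3 were added after their values were seen. Members and lists were chosen with earlier results of these data known. Results of some single genes are not reported here, although list counts include them.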

Additional observations from a re-analysis of the deposited data

How the results depend on the processing

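The calls of Dhcr7 (log2 fold change -0.38 to -0.33, adjusted p at most 0.00185) and Scd2 (-0.19 to -0.17, at most 9.9e-04) held in all 14 alternatives, and that of Idi1 (0.18 to 0.25) in 12. Leaving out single libraries gave 0 to 1 members called higher (0 without control replicate 1 or NFL replicate 3) and 2 to 4 called lower (4 without control replicate 3, where Insig1 and Fasn joined). Without NFL replicate 1, Acat2 was called lower (-0.24, adjusted p = 0.0494), but not without any other single library (0.199 to 0.607). Over the wider list the counts were 0 to 3 higher and 4 to 7 lower, and over all genes 250 to 509 higher and 266 to 474 lower, with the lowest values without NFL replicate 3 (250 and 266), then without NFL replicate 2 (305 and 310), and 321 lower without control replicate 1. The member median ran from -0.04 to -0.01, and with library size alone it was -0.05. With that scaling 1 gene of the wider list was called higher, Hsd17b12 being lost at an adjusted p of 0.0574. Whether Gramd1b and Hsd17b12 are called rested on single libraries, with adjusted p up to 0.109 and 0.154. The Wald test of DESeq2 called 373 genes higher and 358 lower.

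Same-numbered libraries did not deviate together (correlations -0.02, 0.02 and 0.04 over 9802 genes), so the numbers were taken not to pair them. With the replicate block, 536 genes were called higher and 513 lower, the members gave 1 and 2 and the wider list 2 and 6, with a member median of -0.03.

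Signs of members near 0 were not stable. With library size alone Fdft1 and Elovl6 came to 0.00, on the other side of it. With thinned counts the values were -0.02 for Fdft1, 0.00 for Lss, -0.01 for Scap and -0.01 for Elovl6. Over the left-out libraries the sign turned for Pmvk (0.00 to 0.26), Fdps (-0.15 to 0.09), Fdft1 (-0.04 to 0.05), Sqle (-0.01 to 0.03), Lss (-0.04 to 0.02), Tm7sf2 (-0.29 to 0.02), Nsdhl (-0.03 to 0.06), Ebp (-0.07 to 0.01), Srebf1 (-0.11 to 0.01), Scap (-0.02 to 0.09), Stard4 (-0.03 to 0.04), Elovl6 (-0.01 to 0.04) and Abcg1 (-0.04 to 0.15). The cause was not tested. Depth limits Tm7sf2, Fdps and Abcg1, at 3.37 to 8.08 CPM, most among the tested members.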
